A study of Homo sapiens with 5 samples.

Results

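Enrichment peaks of Nrf2 and HIF1α were examined at 7 genes of NADPH supply, the pentose phosphate pathway and its link to glycolysis, namely PGD, TKT, TALDO1, ME1, IDH1, MTHFD2 and TIGAR. The genes were listed by name, and every peak inside a gene or up to 50 kb from either end on hg19 was taken, which gave 49 of the 29781 peaks in the lists, at 7 of 20163 protein-coding genes. BEAS-2B cells, an immortalized line of human bronchial epithelial cells, were starved of serum overnight and were then collected after 6 h with 1 μM inorganic arsenic (iAs) or without it (control). Chromatin was precipitated with an antibody against Nrf2 or against HIF1α, which gave 4 ChIP-seq libraries with 1 library per antibody and condition, and an input library that was not used here. Control and iAs-treated cells could therefore not be compared by a test, and all values are descriptions of these libraries. The lists hold the start and end of each peak but no height, score or read number, so depth is unknown and peaks are described by presence, position and width. They hold no expression values, so the bronchial identity of the cells was not checked against markers. The Nrf2 list grew from 3204 peaks in control cells to 7743 with iAs, and the HIF1α list from 6008 to 12826, and counts at the 7 genes are therefore given beside the share of all protein-coding genes that met the same rule. Of 6 established Nrf2 targets, 6 had an Nrf2 peak within 10 kb in either condition, and of 7 established HIF1α targets, 4 had a HIF1α peak in control cells and 7 with iAs. The other antibody also had peaks at these targets. HIF1α had one at 4 of the 6 Nrf2 targets in control cells and at 5 with iAs. Nrf2 had one at 3 of the 7 HIF1α targets in control cells and at 4 with iAs. Of all protein-coding genes, 10.6% had an Nrf2 peak within 10 kb in control cells and 19.6% with iAs. For HIF1α these shares were 29.0% and 54.7%.

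NADPH is the reducing currency that regenerates glutathione and thioredoxin and feeds lipid and nucleotide synthesis. The oxidative branch of the pentose phosphate pathway makes it from glucose 6-phosphate, with PGD at the last NADPH-yielding step. The non-oxidative branch, run by TKT and TALDO1, returns pentose phosphates to glycolysis or draws on glycolysis to make ribose. Malic enzyme (ME1) and cytosolic isocitrate dehydrogenase (IDH1) make NADPH from other carbon sources, MTHFD2 works in the mitochondrial folate cycle, and TIGAR lowers fructose 2,6-bisphosphate, which slows glycolysis. Nrf2 is freed from Keap1 by electrophiles and arsenic and binds antioxidant response elements with small Maf proteins. HIF1α binds hypoxia response elements with ARNT, is degraded when oxygen is plentiful, and is best known for its glycolytic targets.

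The elements under the Nrf2 peaks of these genes are shown first, because they show which of these peaks hold the recognition sequence of Nrf2 and where in the interval it lies. Every match to the antioxidant response element core TGACNNNGC in an Nrf2 peak was located on both strands in hg19. There were 13 matches in 4 genes, of which 3 had the full form TGACTCAGC, which also contains the AP-1 site TGACTCA. At least 1 match lay in 3 of the 4 control peaks and 8 of the 12 iAs peaks, where 51.3% and 44.2% of the Nrf2 lists and 11.9% and 14.0% of intervals moved by 5 kb held one. Wide intervals held it more often, in 77.7% of Nrf2 iAs peaks over 700 bp, a limit set after the widths were seen, and in 32.7% of those intervals moved. In the control list these shares were 79.6% and 27.9%. Of the peaks over 700 bp at these genes, 3 of 4 in control cells and 5 of 6 with iAs held it. The 6 sequences below are those 3, both PGD matches, and the match nearest the centre of the wide peak upstream of TKT. The core is in capitals, negative distances are upstream, and each sequence is written 5′ to 3′ on the strand that carries the core.

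ME1 promoter, chr6:84140889-84140917, minus strand, at -133 bp from the start site (in the Nrf2 peaks of both conditions): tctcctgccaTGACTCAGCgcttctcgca
TKT intron 4, chr3:53270354-53270382, plus strand (in the Nrf2 peaks of both conditions): gctgtcagcaTGACTCAGCacttccacat
TALDO1 promoter, chr11:746501-746529, plus strand, at -949 bp from the start site (Nrf2 peak with iAs only): acccagggacTGACTCAGCataagcggac
TKT upstream, chr3:53304253-53304281, minus strand (in the Nrf2 peaks of both conditions): caagtcacaaTGACTCGGCatgttttctt
PGD promoter, chr1:10458910-10458938, minus strand (Nrf2 peak with iAs only): agcacctagaTGACATTGCcccggcgagg
PGD intron 8, chr1:10475648-10475676, minus strand (Nrf2 peak with iAs only): acacacaggaTGACTTAGCatttctagaa

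The same was done for the hypoxia response element cores ACGTG and GCGTG in the HIF1α peak at each start site with iAs. Of the 7 genes, 2 (PGD and MTHFD2) had the ACGTG form there, where 33.9% of all HIF1α intervals with iAs held it, and the matches are shown with the core in capitals.

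PGD promoter, chr1:10458968-10458988, minus strand, at -143 bp from the start site: cgaggcaaACGTGcccgccca
MTHFD2 intron 1, chr2:74426010-74426030, plus strand, at 278 bp from the start site: gcggggcgACGTGgcaccgag

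All 7 genes had a HIF1α peak with iAs, and 4 of the 7 (PGD, TKT, TALDO1 and ME1) also had an Nrf2 peak with iAs. In the Nrf2 libraries, 3 of 7 genes had a peak in control cells against 20.0% of all protein-coding genes, and 4 of 7 with iAs against 35.0%. In the HIF1α libraries, 5 of 7 had a peak in control cells against 45.5% of all genes, and 7 of 7 with iAs against 68.6%. The 49 peaks were 4 Nrf2 peaks in control cells, 12 Nrf2 peaks with iAs, 6 HIF1α peaks in control cells and 27 HIF1α peaks with iAs. Per 100 kb of window this was 0.362, 1.09, 0.543 and 2.44 peaks, where the windows of all protein-coding genes held 0.135, 0.328, 0.289 and 0.668. In the HIF1α iAs library 14 of the 27 peaks lay in the TALDO1 window, which holds 9 other protein-coding genes. Only 9 of the 27 lay nearest to the start site of a listed gene. All 4 Nrf2 and all 6 HIF1α control peaks at these genes had an iAs counterpart, where 5.37% and 46.3% of the control lists had none. By gene, 0 of 7 had a control-only peak of either factor, beside 1.55% of all genes for Nrf2 and 19.9% for HIF1α. TALDO1 and ME1 had a peak in all 4 libraries, as did 12.9% of all genes, but their HIF1α control peaks lay at the start sites of other genes and none was within 10 kb.

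**Figure D1:**
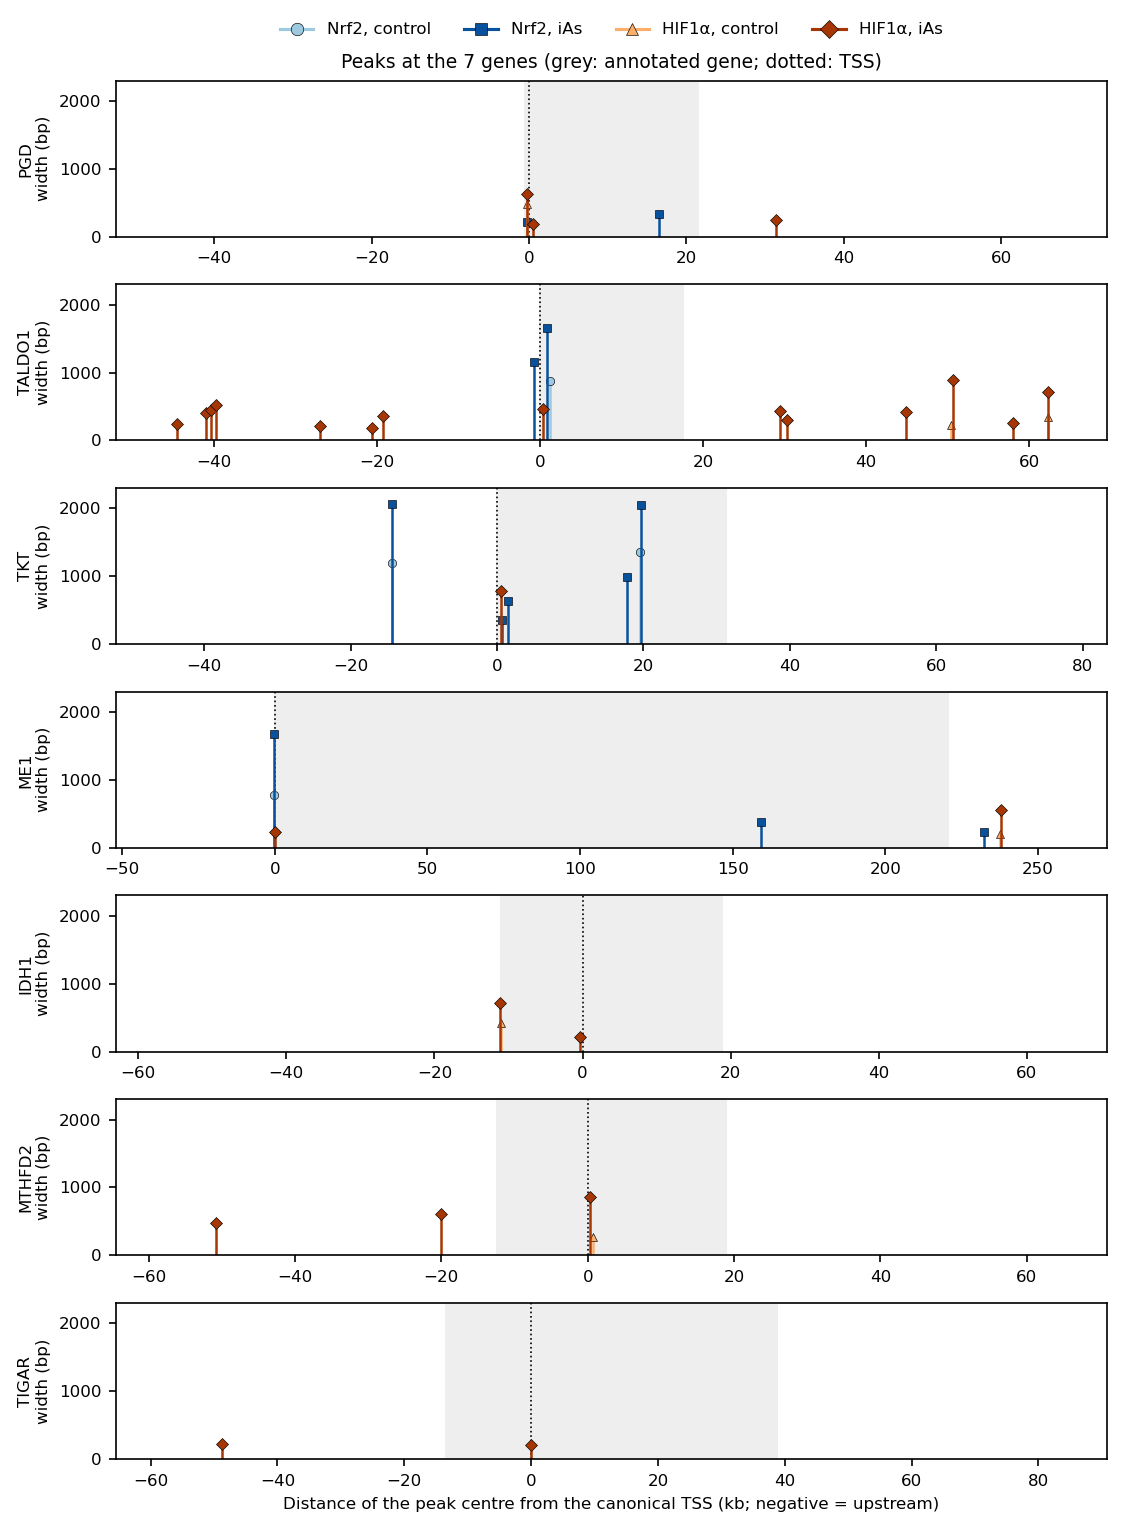
Every peak at the 7 genes, 1 panel per gene. The horizontal axis is the distance of the peak centre from the canonical start site in kb, the vertical axis is peak width in bp, grey marks the annotated gene and colours mark the 4 libraries. The widest peaks are Nrf2 peaks of TKT, TALDO1 and ME1 with iAs, up to 2060 bp, and IDH1, MTHFD2 and TIGAR show HIF1α peaks only.

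PGD, 6-phosphogluconate dehydrogenase, lies at chr1:10458649-10480568 on the plus strand. It had no Nrf2 peak in control cells and 2 with iAs, both absent from the control list. The first, chr1:10458767-10458981, was 215 bp wide and centred at -247 bp from the start site. The second, chr1:10475445-10475782, was 338 bp wide and lay in intron 8, 16.5 kb into the gene. Both were of ordinary size, wider than 16.9% and 50.7% of the Nrf2 peaks with iAs. HIF1α was already at the PGD promoter in control cells, with a peak of 485 bp at chr1:10458602-10459086. With iAs that peak measured 629 bp at chr1:10458578-10459206 and reached across the start site. A further HIF1α peak of 188 bp appeared in exon 2 with iAs, and no peak of its list was narrower. Another with iAs, of 250 bp, lay downstream at the start of the neighbouring gene CENPS. At PGD, HIF1α was thus present at the promoter in both lists and Nrf2 in the iAs list only.

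TKT, transketolase, lies at chr3:53258728-53290068 on the minus strand and carried the largest Nrf2 intervals of the 7 genes. In control cells 1 peak of 1191 bp lay upstream, at -14.4 kb from the start site (chr3:53303810-53305000) and 1 of 1357 bp lay in intron 4 (chr3:53269814-53271170). These were wider than 99.1% and 99.6% of all Nrf2 peaks in control cells. With iAs they measured 2060 bp (chr3:53303295-53305354) and 2043 bp (chr3:53269330-53271372), again wider than 99.6% and 99.5% of their list. The intron 4 peak is the one with the TGACTCAGC element shown above, 17 bp from its centre with iAs. Nrf2 peaks that were absent from the control list appeared in intron 1, at chr3:53289189-53289549 (361 bp, 669 bp from the start site) and chr3:53288247-53288883 (637 bp), and in intron 4 at chr3:53271770-53272760 (991 bp). HIF1α had no peak at TKT in control cells. With iAs it had 1, of 789 bp at chr3:53289166-53289954 in intron 1, which was wider than 92.0% of its list and contained the whole 361 bp Nrf2 peak. All 5 Nrf2 peaks with iAs and the HIF1α peak lay nearer to the start site of TKT than to that of any other protein-coding gene.

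TALDO1, transaldolase, lies at chr11:747415-765012 on the plus strand, in a window with 9 other protein-coding genes. In control cells Nrf2 had 1 peak of 879 bp in intron 1, at chr11:748190-749068. With iAs the intron 1 peak measured 1663 bp (chr11:747511-749173), and a separate promoter peak of 1158 bp appeared at chr11:746156-747313. The promoter peak contains the TALDO1 element shown above and was absent from the control list. Both iAs intervals were wide for their list, wider than 98.8% and 95.5% of it, and together they flanked the start site without covering it. HIF1α had 2 control peaks and 14 peaks with iAs in the window, but 2 of 2 and 12 of 14 lay nearer to another gene's start site, among them EPS8L2, GATD1, SLC25A22, PIDD1 and RPLP2. The HIF1α peak at TALDO1 itself was 460 bp wide, at chr11:747610-748069 in intron 1, and was present with iAs only. The other, of 360 bp, lay upstream at -19.3 kb.

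ME1, the cytosolic NADP-dependent malic enzyme, lies at chr6:83920121-84140770 on the minus strand and is the longest of the 7 genes at 221 kb. It was the only one with an Nrf2 peak over its start site, which spanned 785 bp in the control list (chr6:84140733-84141517) and 1680 bp in the iAs list (chr6:84140252-84141931). Those widths exceeded 95.2% and 98.9% of the respective lists. Both intervals contain the ME1 element shown above. With iAs a peak of 381 bp appeared in intron 6, 159 kb into the gene, and one of 232 bp beyond its end in RWDD2A. HIF1α had no control peak at the start of ME1 and a peak of 229 bp there with iAs (chr6:84140556-84140784), which covered the start site and lay wholly within the Nrf2 interval. Its only other peaks in the window lay at the start sites of PGM3 and RWDD2A, 238 kb from the start of ME1, where HIF1α spanned 207 bp in the control list and 561 bp in the iAs list.

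**Figure D2:**
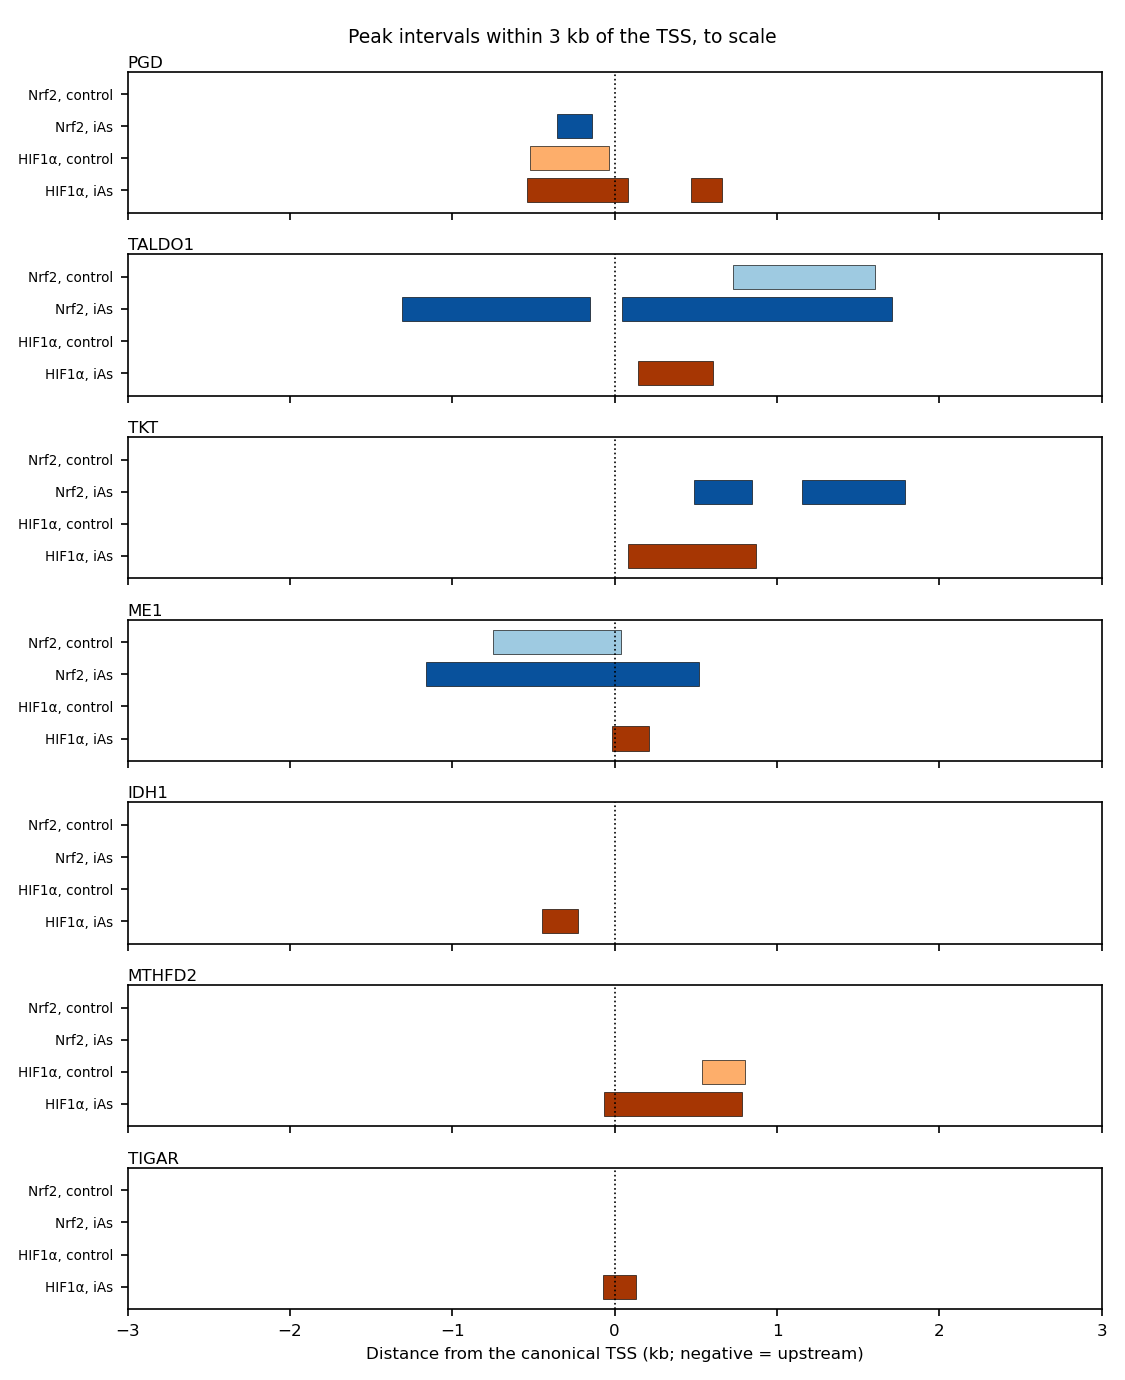
Peak intervals within 3 kb of the canonical start site of each gene, drawn to scale, with 1 row per library. The horizontal axis is distance from the start site in kb. In the iAs rows HIF1α has an interval at each of the 7 genes, and Nrf2 has intervals at PGD, TALDO1, TKT and ME1 only.

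IDH1, the cytosolic and peroxisomal NADP-dependent isocitrate dehydrogenase, lies at chr2:209100953-209130798 on the minus strand and had no Nrf2 peak in either library. HIF1α had a peak of 218 bp at chr2:209120023-209120240 with iAs only, centred at -336 bp from the canonical start site. The other HIF1α peak, which spanned 416 bp in the control list and 712 bp in the iAs list, lay at -11.1 and -11.2 kb, at the start of PIKFYVE. That site falls at the end of the annotated IDH1 gene record, which extends to it through a longer transcript, and in the control list it was the only peak counted for IDH1.

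MTHFD2, the mitochondrial methylenetetrahydrofolate dehydrogenase, lies at chr2:74413299-74444692 on the plus strand and had no Nrf2 peak. HIF1α had a peak of 267 bp in intron 1 in control cells, at chr2:74426277-74426543. With iAs the peak measured 853 bp at chr2:74425677-74426529, wider than 93.9% of its list, and its upstream edge lay beyond the start site. The ACGTG element shown above lies inside the iAs interval and outside the control interval. The 2 other iAs peaks in the window, of 612 and 478 bp, lay at the start sites of MOB1A and BOLA3.

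TIGAR, a phosphatase that lowers fructose 2,6-bisphosphate, lies at chr12:4416929-4469194 on the plus strand. It had no Nrf2 peak and no control peak of either factor. Its start site lay under a HIF1α peak of 202 bp in the iAs list (chr12:4430310-4430511), and this was among the narrowest of the list, wider than 9.28% of it. The second, of 227 bp, lay at -48.8 kb in CCND2. Of the HIF1α peaks nearest to the 7 start sites with iAs, the 202 bp peak was the narrowest, and it contained neither ACGTG nor GCGTG.

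Each of the 7 genes had HIF1α at its start site with iAs, and the pentose phosphate genes and ME1 had Nrf2 there as well. With iAs a HIF1α peak was centred within 1 kb of the canonical start site in 7 of 7 genes, where 42.1% of all protein-coding genes had one. Those of TIGAR, IDH1 and ME1 were narrow, at 202, 218 and 229 bp, wider than 9.28%, 15.5% and 19.5% of the list. In control cells 2 of 7 (PGD and MTHFD2) had a HIF1α peak centred there, against 16.5% of all genes. An Nrf2 peak was centred there at 1 of 7 in control cells (ME1), against 2.23%, and at 4 of 7 with iAs, against 4.91%. Of the iAs peaks centred there, those absent from the control list were found at 6 genes for HIF1α, against 30.6% of all genes, and at 3 for Nrf2, against 3.10%. The HIF1α count includes PGD only through its 188 bp peak in exon 2, since its promoter peak was in both lists. A HIF1α peak covered the start site itself at 0 genes in control cells, against 9.93%, and at 4 with iAs (PGD, ME1, MTHFD2 and TIGAR), against 24.4%. An Nrf2 peak covered it at ME1 only in each condition, against 1.19% and 2.34% of all genes. A peak touched the gene body itself at 3, 4, 3 and 7 of 7 genes for Nrf2 control, Nrf2 iAs, HIF1α control and HIF1α iAs, against 7.59%, 14.5%, 19.9% and 44.7% of all genes. With a window of 10 kb the counts were the same in this order, against 10.6%, 19.6%, 29.0% and 54.7% of all genes. The 7 genes were chosen by name with earlier results of these data known, so these shares describe the list and were not tested.

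**Figure D3:**
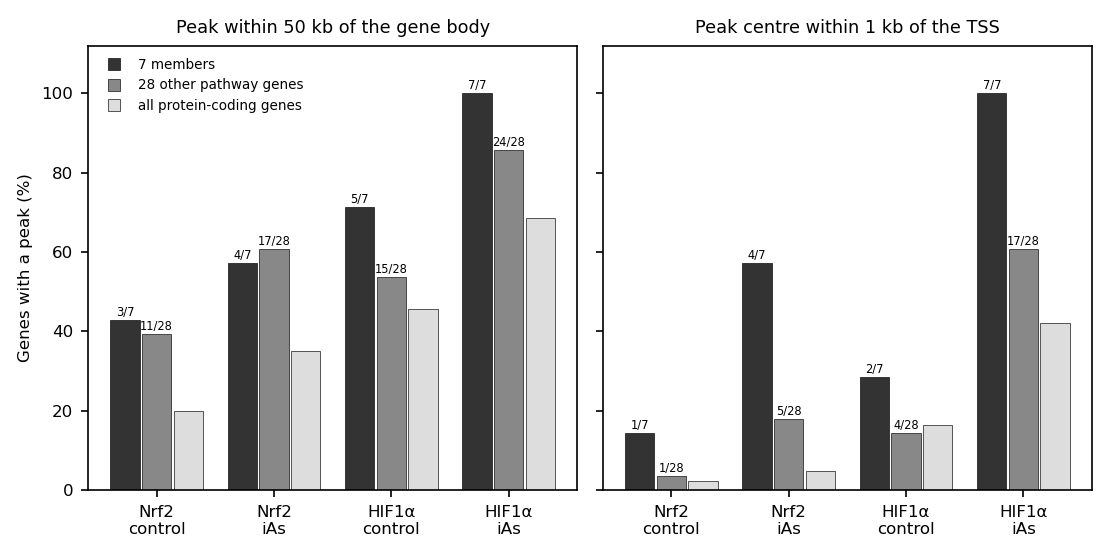
Percentage of genes with a peak in each library, for the 7 genes, for 28 other genes of the same pathways and for all protein-coding genes. The left panel counts peaks within 50 kb of the gene body and the right panel counts peak centres within 1 kb of the start site, with the number of genes above the bars. At the start site the HIF1α iAs bar of the 7 genes stands at 7 of 7 and the Nrf2 iAs bar at 4 of 7, where all genes reach 42.1% and 4.91%.

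Counted as presence or absence, 4 of 7 genes had an Nrf2 peak within 50 kb that was absent from the control list, against 25.4% of all genes, and 7 of 7 had such a HIF1α peak, against 59.6%. The same 4 genes, PGD, TKT, TALDO1 and ME1, gained a peak of both factors, as did 18.7% of all genes. Of the 12 Nrf2 peaks with iAs, 8 (66.7%) had no control counterpart, close to the 62.0% of the whole list, and of the 27 HIF1α peaks 21 (77.8%) had none, against 75.2%. The iAs lists were the longer ones. When the iAs list of each factor was cut to as many of its widest peaks as the control list held, 3 iAs-only Nrf2 peaks at 2 genes and 10 iAs-only HIF1α peaks at 3 genes were left.

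Peaks called in both conditions were wider with iAs at all 10 sites. The 4 Nrf2 sites measured 785 and 1680 bp at ME1, 879 and 1663 bp at TALDO1, 1191 and 2060 bp upstream of TKT, and 1357 and 2043 bp in intron 4 of TKT, for control and iAs. Their ratios ran from 1.51 to 2.14 with a median of 1.81, and each control interval lay inside its iAs interval. Over the whole Nrf2 list 91.7% of the 2833 sites with 1 peak in each condition were wider with iAs, and the median ratio was 1.63. The 6 HIF1α sites had ratios of 1.30 at PGD, 1.71 at IDH1 (PIKFYVE), 2.07 and 3.95 in the TALDO1 window (RPLP2 and SLC25A22), 2.71 in the ME1 window (PGM3) and 3.19 at MTHFD2. Their median was 2.39, beside 1.44 over 3045 sites of the list, of which 76.7% were wider with iAs. Only PGD and MTHFD2 of these 6 sites lie at the start site of a listed gene. The lists record neither tag number nor peak caller, and the part of either in the widths was not tested.

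**Figure D4:**
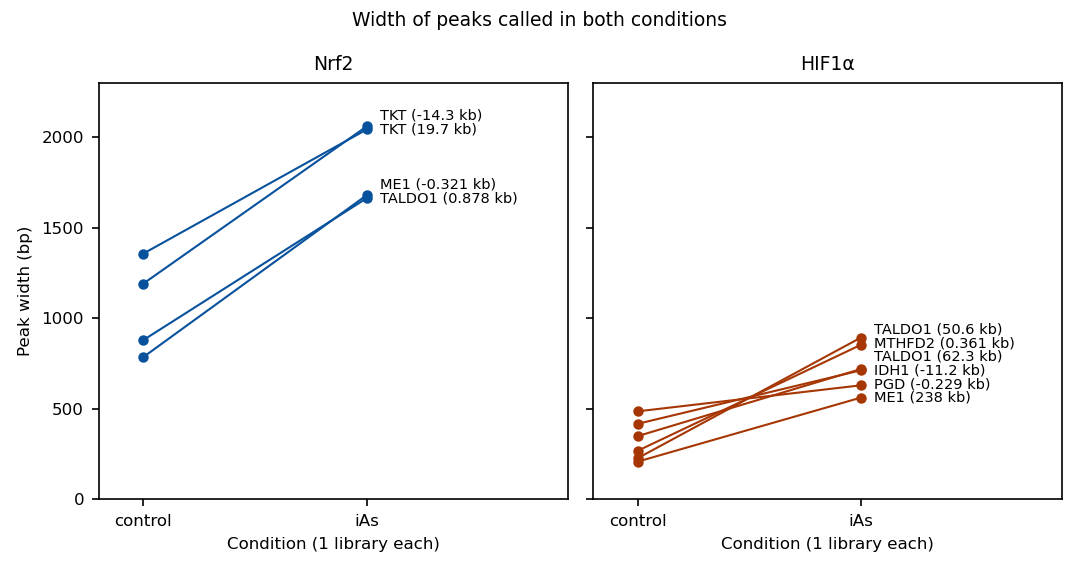
Width in bp of the peaks called in both conditions, joined by a line from control to iAs, for Nrf2 (left) and HIF1α (right). Labels give the gene whose window holds the peak and the distance of the iAs centre from its start site in kb. Every line rises, from 785 to 1357 bp in control up to 1663 to 2060 bp with iAs for Nrf2, and from 207 to 485 bp up to 561 to 893 bp for HIF1α.

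Some Nrf2 peaks at TKT, TALDO1 and ME1 were among the widest of their lists, whereas those at PGD were not. A peak of over 1000 bp lay within 50 kb of 1 gene in control cells (TKT), against 0.694% of all genes, and of 3 with iAs (TKT, TALDO1 and ME1), against 4.31%. The median width of the Nrf2 peaks at the 7 genes was 1035 bp in the control list and 814 bp in the iAs list, where the lists had medians of 309 and 333 bp. The HIF1α peaks were closer to their lists, with medians of 308 and 423 bp beside 276 and 340 bp. At least 2 Nrf2 peaks in the gene body were found with iAs at 3 of 7 genes (PGD, TKT and ME1), against 4.72% of all genes.

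Nrf2 and HIF1α intervals overlapped at the start of PGD, TKT, TALDO1 and ME1 with iAs and at none of the 7 genes in control cells. The shared stretch was 215 bp at PGD, 460 bp at TALDO1, 361 bp at TKT and 229 bp at ME1. In each case the whole of the narrower interval lay inside the wider one. At PGD and TKT the Nrf2 peak was the narrower, and the overlap made up 34.2% and 45.8% of the HIF1α peak. At TALDO1 and ME1 the HIF1α peak was the narrower, and it made up 27.7% and 13.6% of the Nrf2 peak. All 4 stretches were centred within 1 kb of the start site, at -247, 375, 669 and 100 bp. An Nrf2 peak so placed that overlapped a HIF1α peak was found at 3.60% of all protein-coding genes with iAs and at 1.28% in control cells. Most genes with an Nrf2 peak so placed had this overlap, 726 of 991 with iAs and 258 of 450 in control cells. Among Nrf2 peaks at any position, 27.7% of the control list and 14.7% of the iAs list overlapped a HIF1α peak. At the 7 genes this was 0 of 4 Nrf2 peaks in control cells and 4 of 12 with iAs. Because the intervals differed in width, none of the 4 overlaps at these genes met a reciprocal overlap of 50%.

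The sequences under the peaks differed in where the element lay. Within 100 bp of the centre, 5 of 12 Nrf2 peaks with iAs (41.7%) held TGACNNNGC, beside 31.6% of the 7743 peaks of the list and 6.65% of windows moved by 5 kb. The full TGACTCAGC was there in 1 of 12, in intron 4 of TKT, beside 15.6% of the list and 0.245% of moved windows. In control cells none of the 4 Nrf2 peaks held either form within 100 bp of the centre, beside 42.4% and 23.8% of that list and 6.71% and 0.187% of moved windows. Over the whole interval 2 of the 4 control peaks (TKT intron 4 and ME1) and 3 of the 12 iAs peaks (these and the TALDO1 promoter) held TGACTCAGC, beside 29.0% and 21.7% of the lists. Among intervals of over 700 bp, TGACTCAGC was in 2 of 4 control peaks and 3 of 6 iAs peaks at these genes. The lists held it in 45.1% and 46.6% of such intervals, and moved intervals in 3.10% and 1.47%. Of the 13 core matches, 8 lay more than 100 bp from the centre of the iAs peak, among them the ME1 element at -188 bp and the TALDO1 element at -219 bp in genome coordinates. The AP-1 form TGACTCA alone was within 100 bp of the centre in 1 of 12 iAs peaks, beside 38.3% of the list and 3.85% of moved windows, and that match was the TKT element itself.

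For HIF1α with iAs, 7 of 27 peaks (25.9%) held ACGTG within 100 bp of the centre and 14 of 27 (51.9%) held GCGTG, beside 19.6% and 41.3% of the list and 9.55% and 17.5% of moved windows. In control cells 2 of 6 held ACGTG and 5 of 6 held GCGTG, beside 23.6% and 33.3% of the list and 9.24% and 16.2% of moved windows. Many of these peaks lie nearer to other genes, with 9 of the 27 iAs peaks and 2 of the 6 control peaks nearest to the start site of a listed gene. Both control peaks with ACGTG within 100 bp of the centre lay at the start sites of neighbours (PANO1 and RWDD2A). Of the control peaks with GCGTG there, that of PGD alone lay at the start of a listed gene. Farther from its centre, the PGD control peak also held ACGTG, which is the PGD match shown above. In the whole intervals at the 7 start sites with iAs, PGD had 1 ACGTG and 4 GCGTG, MTHFD2 had 1 and 3, TKT had 0 and 2, and ME1 had 0 and 1. TALDO1, IDH1 and TIGAR had neither, where 71.6% of all HIF1α peaks with iAs held at least 1 of these cores. The intervals of IDH1 and TIGAR, of 218 and 202 bp, were the narrowest of these 7, and that of TALDO1 was 460 bp.

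Among 28 other genes of the same pathways, 9 had an Nrf2 peak inside or up to 10 kb from the gene in control cells and 11 with iAs, and 11 and 18 had a HIF1α peak. The shares of all genes were 10.6% and 19.6% for Nrf2 and 29.0% and 54.7% for HIF1α. By branch, with iAs, 5 of 11 other pentose phosphate genes had an Nrf2 peak and 5 of 11 a HIF1α peak. The counts were 5 and 11 of 13 for other NADPH and folate genes, and 1 and 2 of 4 for the enzymes of fructose 2,6-bisphosphate. At the start site, within 1 kb, 5 of 28 had an Nrf2 peak and 17 of 28 a HIF1α peak with iAs, against 4.91% and 42.1% of all genes.

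PGLS, 6-phosphogluconolactonase, which acts just before PGD in the oxidative branch, had an Nrf2 peak of 267 bp and a HIF1α peak of 669 bp at its start site with iAs only. PFKFB3, which makes fructose 2,6-bisphosphate, gained peaks of both factors over its start, of 597 bp for Nrf2 and 574 bp for HIF1α. RBKS, ribokinase, had an Nrf2 peak at its promoter in control cells (267 bp) and with iAs (435 bp), and a HIF1α peak of 302 bp there with iAs only. At each of these genes the Nrf2 and HIF1α peaks at the start site overlapped with iAs.

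DERA, deoxyribose-phosphate aldolase, had an Nrf2 peak of 250 bp upstream and a HIF1α peak of 394 bp at the start site with iAs, and these did not overlap. IDH2, the mitochondrial isocitrate dehydrogenase, had an Nrf2 peak of 257 bp in intron 1 and a HIF1α peak of 370 bp near the start site, both with iAs only, where IDH1 had no Nrf2 peak. NADK, the cytosolic NAD kinase, had an Nrf2 peak in intron 3 that spanned 226 bp in the control list and 486 bp in the iAs list. ME3, a mitochondrial malic enzyme, had one in intron 2 of 214 and 342 bp. MTHFD1L and MTHFD2L, mitochondrial folate enzymes, had intronic Nrf2 peaks in both conditions, of 259 and 340 bp in MTHFD1L and of 531 and 854 bp in MTHFD2L, all over 100 kb from the start site. H6PD, a hexose phosphate dehydrogenase of the endoplasmic reticulum, had an Nrf2 peak of 203 and 541 bp beyond its end, and PFKFB4 one of 233 bp upstream in control cells only. Of the genes with no Nrf2 peak within 10 kb, the widest HIF1α peaks with iAs in that window lay at the start sites of NADK2 (779 bp, with 352 bp in control cells), SHMT1 (530 bp) and RPIA (471 bp), the last 2 absent from the control list.

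Genes on other chromosomes with the most similar amount of peak sequence in the 4 libraries were found for the 4 listed genes with peaks in at least 3 libraries. Likeness was the Euclidean distance over 4 values of log2 (covered bp + 1). PGD was nearest to CTDSPL2 at 0.16, TALDO1 to SIRT7 at 0.30, ME1 to UPP1 at 0.32 and TKT to ASPH at 0.49. For TKT the covered lengths were 2548, 6092, 0 and 789 bp for Nrf2 control, Nrf2 iAs, HIF1α control and HIF1α iAs, and for ASPH 1855, 5540, 0 and 732 bp. For ME1 they were 785, 2293, 207 and 790 bp, and for UPP1, uridine phosphorylase, which releases ribose 1-phosphate, 793, 2293, 252 and 714 bp. These matches rest on 4 libraries and on how much of each window was covered, not on where the peaks lay.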

How the data were processed

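Chromatin of BEAS-2B cells was immunoprecipitated for Nrf2 or HIF1α in control and iAs-treated cells, with 1 library per antibody and condition. The methods name antibodies from Active Motif, and the labels name Santa Cruz and Abcam products. The authors down-sampled tags to the smallest library of a group and called peaks with MACS or SICER. Which of these made each list is not given in the sources used here, and the submitters' processing notes name BWA, MACS2 2.1.0 and hg19. The deposited lists hold base positions (start and end) on hg19 without heights or scores, so depth and precision are unknown.

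Intervals were used as deposited, with starts changed to 1-based. Genes and canonical start sites came from GENCODE release 44 mapped to GRCh37, without mitochondrial genes (20163 protein-coding genes). A peak belonged to a gene when it touched the gene body or the 50 kb on either side, and peaks overlapped when they shared at least 1 bp. Motifs were searched on both strands within 100 bp of the peak centre, in such windows placed 5 kb away, and in whole intervals. All 7 genes are named with their peaks. Of 28 other pathway genes, those with an Nrf2 peak within 10 kb and the 3 others with the widest HIF1α peak with iAs are named, except 1 that is not reported here. The genes and lists were chosen with earlier results of these data known. No test was run, since no condition had replicates. Python 3.11.15, NumPy 2.4.6, SciPy 1.17.1 and pysam 0.24.0 were used, the overlap and motif steps were checked on simulated data, and overlaps were recounted with bedtools 2.31.1. Alternatives changed the window, the overlap rule, the motif window, the list length and the gene set. The merged regions deposited beside the lists held no region at these genes without a library peak, and the input library was not analysed.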

Additional observations from a re-analysis of the deposited data

How the results depend on the processing

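No paired analysis was possible because each antibody and condition had 1 library, and for the same reason no library could be left out. Under the other settings tried, 77 values stayed close to the reported one and 51 moved, and none had a test. The genes with an Nrf2 peak numbered 3 in control cells under every window tried, and 4 with iAs except for 5 within 100 kb. HIF1α control genes fell from 5 to 3 with the gene body only, 2 kb, 10 kb, 50 kb around the start site or the wider 50% of peaks, and to 2 where the peak had to be nearest to the gene's own start site. HIF1α control peaks under these settings were 3 and 2 in place of 6, and 12 within 100 kb. HIF1α iAs peaks were 9 in the gene body or within 2 kb, 11 within 10 kb, 49 within 100 kb, 16 among the wider 50% and 9 nearest to the gene's own start site, in place of 27. With iAs lists cut to equal numbers of the widest peaks, iAs-only peaks were 3 for Nrf2 at 2 genes and 10 for HIF1α at 3 genes. Under a reciprocal overlap of 50%, overlapping factor pairs with iAs were 0 in place of 4.

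Motif counts moved with the stretch searched. Over whole intervals, Nrf2 control peaks held TGACTCAGC in 2, TGACNNNGC, TGACTCA and GCGTG in 3 each and ACGTG in 2, all 0 near the centre. Nrf2 iAs peaks held TGACTCAGC in 3, TGACNNNGC in 8, TGACTCA in 4, ACGTG in 6 and GCGTG in 8, and HIF1α iAs peaks held TGACNNNGC in 10 and TGACTCA in 2. Within 50 bp of the centre, Nrf2 iAs peaks held TGACNNNGC in 1, GCGTG in 1 and ACGTG in 0. HIF1α iAs peaks there held ACGTG in 2 and GCGTG in 8, and HIF1α control peaks ACGTG in 1 and TGACNNNGC in 0. Shares of genes with a peak (Nrf2 control, Nrf2 iAs, HIF1α control, HIF1α iAs) were 10.6%, 19.6%, 29.0% and 54.7% within 10 kb, and 14.2%, 26.0%, 30.2% and 46.7% over all annotated genes. The cause of these moves was not tested beyond the construction of each setting.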
